A study of Mus musculus with 6 samples.

Results

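The start sites of standalone long intergenic noncoding RNA (lincRNA) genes were examined in the 6 lists of open chromatin peaks of the series. A gene was kept if GENCODE M21 (mm10) classes it as lincRNA and if its gene-level transcription start site (TSS) lies over 5 kb from the TSS of every protein-coding gene. This left 5226 of the 5854 lincRNA genes on chromosomes 1 to 19, X and Y, among 55413 annotated genes of all classes. For each gene, the window from 500 bp upstream to 500 bp downstream of the TSS was scored for a peak in each library, and the choice of genes used no peak. The 628 lincRNA genes at or under the distance limit and 21938 protein-coding genes served for comparison. The limit fell between AW121686, which was kept at 5002 bp from the Tcf20 TSS, and Gm26669, which was left out at 4979 bp from that of Zfp36l1. Neither of these windows held a peak in any library.

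The libraries were made by Omni-ATAC-Seq, in which a transposase inserts sequencing adapters into accessible DNA, from 50000 nuclei each of mouse hearts at postnatal day 1. All nuclei were first spun through a 2.2 M sucrose cushion, a step that the study uses to obtain mostly cardiomyocyte (CM) nuclei, and each of the 3 groups has 2 biological replicates. Input nuclei came from WT hearts without antibody, and PCM1 nuclei came from WT hearts after magnetic immunoaffinity purification (MAN-IP) with an antibody to PCM1, a protein of the CM nuclear envelope region. Myc nuclei came from hearts of the genotype Nkx2-5 Cre/+; R26RSun1-Myc-Egfp/+, after MAN-IP with a Myc antibody. The Nkx2-5 Cre allele labels the descendants of cardiac progenitors, which include CMs, smooth muscle and endothelial cells, so genotype and antibody differ together between Myc and the other groups and cannot be told apart.

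LincRNAs are transcripts over a length cutoff without a recognised open reading frame, and most are capped, spliced and polyadenylated by the machinery that also serves mRNAs. Many are made in few cell types and at low levels, while others, such as Malat1 and Neat1, are abundant nuclear RNAs in nearly every cell. Their promoters are on average poorer in CpG dinucleotides than those of mRNAs and more often derive from transposable elements. An accessible window shows that the DNA could be cut there, not that an RNA was made, and RNA was not analysed here.

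Sequences from 250 bases before to 50 bases from the TSS onward are given for 8 genes, as examples of windows with a peak in every library and of windows with a peak in 1 group alone. They were read 5′ to 3′ on the strand of the gene from the mm10 (GRCm38) chromosome sequences, and capitals mark CpG dinucleotides. The first 3 genes had the highest lowest rank over the 6 libraries: 6720427I07Rik at chr13:48546451-48546750 on the minus strand with 40 CpGs, Gm33195 at chr13:43864419-43864718 on the plus strand with 23 CpGs, and Gm10010 at chr6:128200574-128200873 on the minus strand with 22 CpGs.

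6720427I07Rik: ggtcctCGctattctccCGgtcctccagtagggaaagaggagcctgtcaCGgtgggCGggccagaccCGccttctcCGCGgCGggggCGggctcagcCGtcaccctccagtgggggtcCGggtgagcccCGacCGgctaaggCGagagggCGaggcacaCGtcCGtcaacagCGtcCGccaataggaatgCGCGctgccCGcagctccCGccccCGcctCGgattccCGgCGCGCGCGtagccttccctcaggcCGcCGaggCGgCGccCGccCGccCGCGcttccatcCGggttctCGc
Gm33195: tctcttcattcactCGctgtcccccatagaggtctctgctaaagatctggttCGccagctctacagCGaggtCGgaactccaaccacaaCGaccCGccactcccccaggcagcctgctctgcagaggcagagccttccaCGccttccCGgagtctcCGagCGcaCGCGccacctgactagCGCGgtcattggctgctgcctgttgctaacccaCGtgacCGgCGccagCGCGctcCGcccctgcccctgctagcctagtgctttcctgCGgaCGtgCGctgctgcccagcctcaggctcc
Gm10010: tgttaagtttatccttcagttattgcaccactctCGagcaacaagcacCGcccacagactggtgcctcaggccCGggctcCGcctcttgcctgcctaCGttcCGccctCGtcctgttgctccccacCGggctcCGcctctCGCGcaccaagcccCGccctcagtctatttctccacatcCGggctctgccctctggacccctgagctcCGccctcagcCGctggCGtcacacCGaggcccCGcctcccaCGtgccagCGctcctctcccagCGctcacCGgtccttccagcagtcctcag

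The next 3 genes were the leading genes with a peak in both libraries of Input, Myc or PCM1 and in no other library. Gm6213 (Input) lies at chr8:39297730-39298029 on the plus strand with 3 CpGs, 1500035N22Rik (Myc) at chr5:24985592-24985891 on the plus strand with 8 CpGs, and AC122252.3 (PCM1) at chr17:26464108-26464407 on the minus strand with 4 CpGs. A purine-rich low-complexity stretch fills the middle of the Gm6213 window, of whose 300 bases 48.3% are masked as repeat.

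Gm6213: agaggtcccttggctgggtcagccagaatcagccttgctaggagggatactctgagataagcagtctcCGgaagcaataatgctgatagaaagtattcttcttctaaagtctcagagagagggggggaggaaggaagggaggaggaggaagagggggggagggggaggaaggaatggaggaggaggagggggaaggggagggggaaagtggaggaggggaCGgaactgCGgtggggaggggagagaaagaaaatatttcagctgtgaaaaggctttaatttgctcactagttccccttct
1500035N22Rik: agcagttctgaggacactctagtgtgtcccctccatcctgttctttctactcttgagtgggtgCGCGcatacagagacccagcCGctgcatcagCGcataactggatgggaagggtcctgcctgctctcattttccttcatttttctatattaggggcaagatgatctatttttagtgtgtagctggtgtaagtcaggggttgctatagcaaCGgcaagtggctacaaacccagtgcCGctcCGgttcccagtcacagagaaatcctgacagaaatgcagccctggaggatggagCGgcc
AC122252.3: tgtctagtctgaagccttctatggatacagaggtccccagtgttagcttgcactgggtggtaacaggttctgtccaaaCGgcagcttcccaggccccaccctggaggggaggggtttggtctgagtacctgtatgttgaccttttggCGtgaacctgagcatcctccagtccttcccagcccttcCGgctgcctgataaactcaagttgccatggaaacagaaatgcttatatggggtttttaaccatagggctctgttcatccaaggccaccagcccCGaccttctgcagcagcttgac

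The last pair was chosen after its values were seen, and both windows had peaks in every library. Snhg6 was taken as a housekeeping promoter whose window is CpG-rich by the rule given below. The Gm12295 window is not CpG-rich by that rule, and its nearest protein-coding gene is a heart gene. Snhg6, the host of a small nucleolar RNA, starts within chr1:9944069-9944368 on the minus strand and has 19 CpGs. Gm12295, 95809 bp from the TSS of Myocd, starts within chr11:65365749-65366048 on the minus strand. The bases printed for it hold 12 of the 15 CpGs of its whole window.

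Snhg6: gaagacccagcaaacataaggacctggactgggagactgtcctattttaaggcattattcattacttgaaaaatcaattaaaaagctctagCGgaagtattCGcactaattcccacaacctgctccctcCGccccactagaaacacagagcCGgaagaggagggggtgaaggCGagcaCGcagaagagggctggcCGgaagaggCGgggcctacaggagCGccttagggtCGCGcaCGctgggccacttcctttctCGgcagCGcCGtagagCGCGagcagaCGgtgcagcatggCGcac
Gm12295: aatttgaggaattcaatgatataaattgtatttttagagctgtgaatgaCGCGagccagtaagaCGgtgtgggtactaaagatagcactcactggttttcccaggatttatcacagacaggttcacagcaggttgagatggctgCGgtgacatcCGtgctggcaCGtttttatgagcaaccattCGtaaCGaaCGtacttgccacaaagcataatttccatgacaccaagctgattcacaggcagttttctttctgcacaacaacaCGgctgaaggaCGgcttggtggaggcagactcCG

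Most standalone lincRNA start sites had no peak in these nuclei. In Input, 1054 (20.2%) of the 5226 windows held a peak in replicate 1 and 668 (12.8%) in replicate 2, against 34.5% and 29.5% of the windows of all annotated genes. In Myc, the counts were 911 (17.4%) and 887 (17%), against 32.5% and 32.3% of all genes. In PCM1, they were 729 (13.9%) and 693 (13.3%), against 29.9% and 29.6% of all genes. Every library thus held peaks at a smaller share of these start sites than of gene starts in general, and, apart from the near-equal Myc replicates, the libraries fell in the order of their peak lists, from 131500 peaks in Input replicate 1 to 75336 in Input replicate 2. The mean over the 6 libraries was 15.8% ± 2.90 (SD, n = 6).

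The share was far below that of protein-coding genes and of the lincRNA genes close to them. Protein-coding windows held a peak in 59.6% ± 2.50 (SD, n = 6) of cases, and the difference was -43.9 percentage points ± 0.507 (SD, n = 6), with the standalone lincRNAs lower in 6 of 6 libraries. The 628 lincRNA genes within 5 kb of a protein-coding TSS reached 50.9% ± 3.21 (SD, n = 6), and the difference was -35.1 points ± 0.429 (SD, n = 6). Within the same class of transcript, genes near to and far from a coding start thus differed nearly as much as the classes did. These sets of lincRNA genes also differ in CpG content, and their shares by CpG content are given below. A window of a near-coding lincRNA can overlap the coding promoter, so its peak cannot always be assigned to the lincRNA. Both differences gave p = 0.0312 in an exact permutation test (two-sided, signs flipped by library) and p = 0.0312 after Benjamini-Hochberg adjustment over the 6 tests made. This is the smallest p that 6 libraries can give, and the libraries were scored at the same windows, so it speaks of the consistency over libraries and not over genes.

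**Figure D1:**
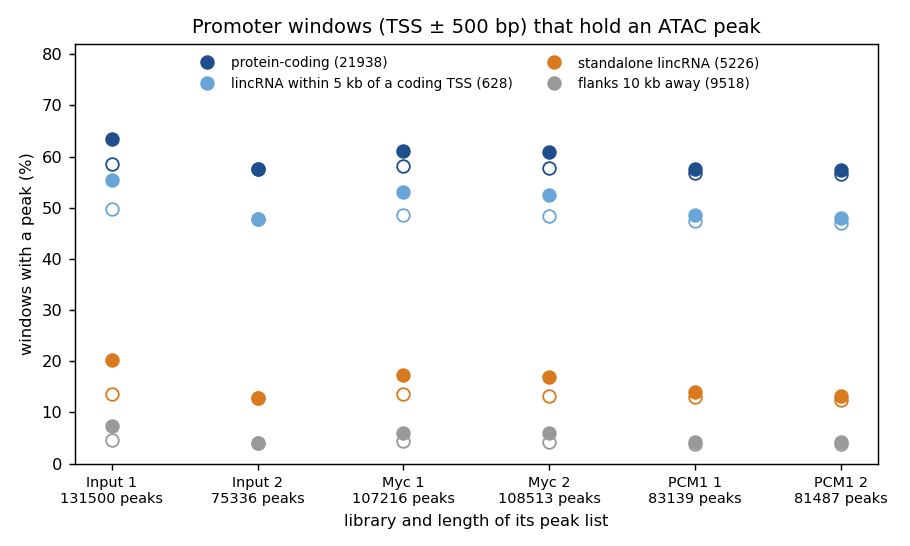
Share of windows with a peak (y axis, percent) in each library (x axis, with the number of peaks in its list), for protein-coding genes, lincRNA genes within 5 kb of a coding TSS, standalone lincRNA genes and windows 10 kb from the latter; filled circles use all peaks and open circles the strongest 75336 peaks of each list. Standalone lincRNA windows lie between 12.8% and 20.2% with all peaks and between 12.4% and 13.7% with equal lists, above the flanks and below both other classes in every library.

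A start site was nevertheless a place where peaks gathered. Windows centred 10 kb to either side, 9518 in all after removal of those near other genes, held a peak in 5.27% ± 1.37 (SD, n = 6) of cases, and the TSS windows exceeded them by 10.5 points ± 1.54 (SD, n = 6), higher in 6 of 6 libraries (exact permutation test with sign flips, p = 0.0312, adjusted p = 0.0312). Summits were densest in the 250 bp just upstream of the TSS in every library, where the Input libraries had 82.5 and 57.6 summits per 1000 start sites, those of Myc 75 and 75.4, and those of PCM1 60.1 and 56.8. Beyond 3 kb from the TSS, the mean per 250 bp was between 7.45 and 13.6 summits per 1000 start sites. The upstream bin thus held between 6.09 and 7.73 times this level at standalone lincRNAs. Protein-coding genes had their own level beyond 3 kb, 7.87 to 11.8 summits per 1000 start sites. Their upstream bin held between 29.4 and 41.4 times that level.

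**Figure D2:**
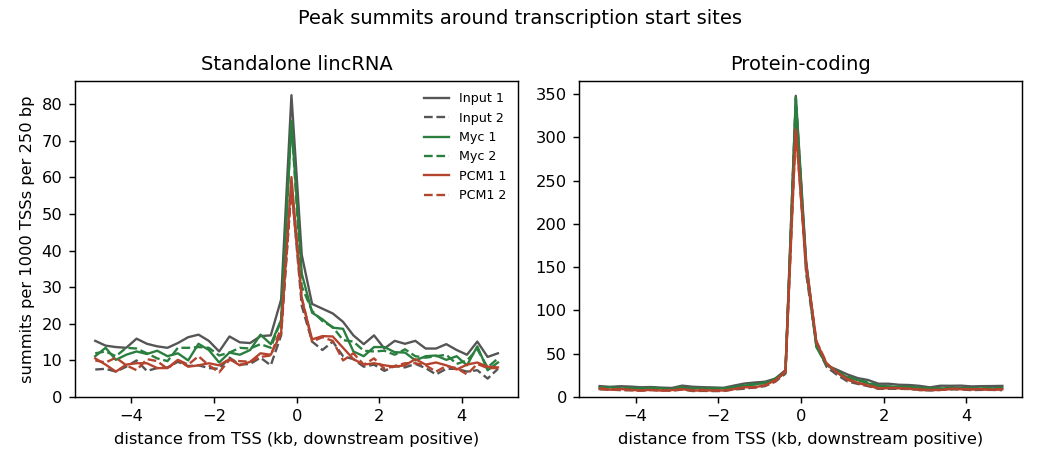
Peak summits per 1000 start sites in bins of 250 bp (y axis) by distance from the TSS in the direction of transcription (x axis, kb), for standalone lincRNA genes (left) and protein-coding genes (right, on its own scale), 1 line per library. Both have their highest bin just upstream of the TSS, at 56.8 to 82.5 summits per 1000 lincRNA start sites.

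The number of libraries that shared a peak divided the genes sharply. Of the 5226 windows, 3994 (76.4%) held no peak in any library, and 1232 (23.6%) held a peak in at least 1, against 36.7% of all genes. All 6 libraries shared a peak at 489 windows (9.36%), against 26.8% of all genes and 11793 (53.8%) of protein-coding genes. The remaining 743 windows, between 121 and 231 for each number of libraries from 1 to 5, therefore made up the larger part of the lincRNA windows with any peak. Each such number of libraries held 2.32% to 4.42% of the members, against 1.60% to 2.93% of all genes. A peak in 1 library alone was the most frequent of these in both. Of the 231 windows with a peak in 1 library alone, 93 had it in Input replicate 1. This library has both the longest list (131500 peaks) and the highest background pileup (3.96, against 0.903 to 1.44 in the others). With 75336 peaks in each list, 20 of 159 such windows had it in Input replicate 1 and 39 in Input replicate 2. The matching counts over all genes are not given here.

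**Figure D3:**
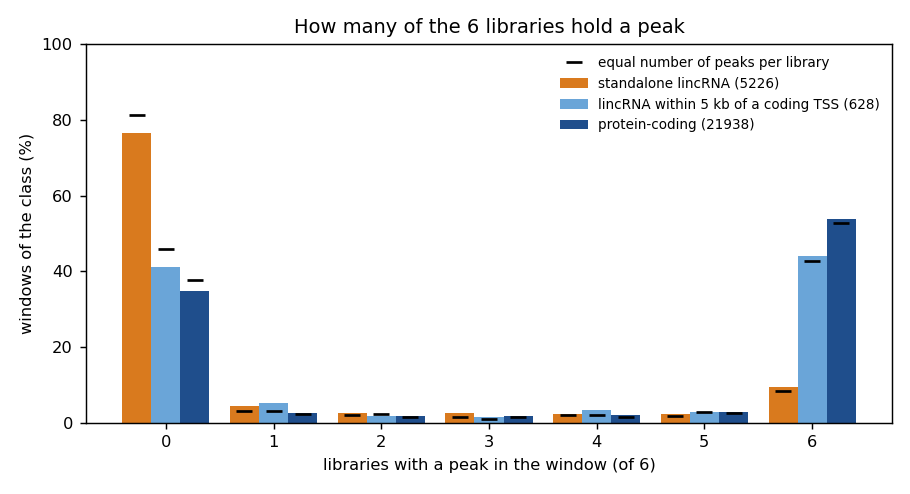
Share of the windows of each class (y axis, percent) by the number of libraries with a peak (x axis, 0 to 6); bars use all peaks and black dashes an equal number of peaks per library. Standalone lincRNAs stand highest at 0 libraries (76.4%), whereas protein-coding genes stand highest at 6 (53.8%).

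Replicates agreed less at lincRNA start sites than at coding ones. Of the windows with a peak in either Input replicate, 59.9% had it in both, against 73.9% in Myc and 69.5% in PCM1, while protein-coding windows had 90.0%, 94.7% and 92.2%. With 75336 peaks in each list, the lincRNA values were 70.4%, 75.7% and 69.9%. The gap between the Input replicates moved with the length of their lists: replicate 1 held 1.58 times as many lincRNA windows with a peak as replicate 2, 1.10 times as many protein-coding windows and 1.85 times as many flank windows. The list length thus moved with the lincRNA share more than with the protein-coding share, and an absent peak means only that none was detectable at that depth.

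CpG content, a known feature of broadly used promoters, went with the peaks. A window was called CpG-rich if its GC content was at least 50% and its ratio of observed to expected CpG was at least 0.6. Only 121 (2.32%) of the standalone lincRNA windows were CpG-rich, against 231 (36.8%) of the near-coding lincRNA and 9740 (44.4%) of the protein-coding windows. Among the CpG-rich windows, standalone lincRNAs held a peak in 72.3% ± 3.42 (SD, n = 6) and protein-coding genes in 94.3% ± 1.80 (SD, n = 6), a difference of -22.0 points ± 2.16 (SD, n = 6). Among the other windows, the shares were 14.4% ± 2.91 and 32.0% ± 3.1 (SD, n = 6), a difference of -17.6 points ± 0.329 (SD, n = 6). Standalone lincRNAs were lower in 6 of 6 libraries in both classes of window (exact permutation test with sign flips, p = 0.0312, adjusted p = 0.0312 for each). Both gaps within a class of window were smaller than the 43.9-point gap over all windows, in which the classes of gene differ in their make-up. Near-coding lincRNAs held a peak in 91.1% ± 3.45 of their CpG-rich windows and 27.5% ± 3.29 of the others (SD, n = 6). Standalone lincRNAs, at 72.3% and 14.4%, were thus closer to them within each class of window than over all windows, which was not tested.

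Most lincRNA windows with a peak in all 6 libraries were still not CpG islands by this rule. Of the 489, 80 were CpG-rich (16.4%), against 8758 of 11793 protein-coding windows (74.3%). The median ratio of observed to expected CpG was 0.315 in the 489 windows, 0.258 in those with a peak in 1 to 5 libraries and 0.188 in those with none. The number of libraries thus rose with CpG content within the class, although these medians lie far under the 0.740 of protein-coding windows with a peak in all 6.

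Transposable elements and other repeats were the counterpart. The TSS itself lay on a base masked as repeat in 1580 standalone lincRNA genes (30.2%), against 2151 protein-coding genes (9.80%). Start sites in a repeat held a peak in 5.14% ± 1.04 (SD, n = 6) and the 3646 outside repeats in 20.4% ± 3.71 (SD, n = 6), a difference of -15.2 points ± 2.68 (SD, n = 6), lower in 6 of 6 libraries (exact permutation test with sign flips, p = 0.0312, adjusted p = 0.0312). Among windows that were not CpG-rich, the shares were 4.80% ± 1.05 in a repeat and 18.7% ± 3.73 outside (SD, n = 6). At 47 genes with a start site in a repeat, the window held a peak in all 6 libraries, among them Jpx, Mir17hg and Mir155hg. Such a peak need not cover the start site: at Mir17hg the summits lay from -661 to -529 bp relative to the TSS. Without chromosome Y, a choice made after seeing the data, the difference was -12.8 points. Reads from repeated sequence can map to several places, and the part of mapping in this difference was not tested.

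Chromosome Y carries 548 of the 5226 genes, and none of their windows held a peak in any library. Of the 183 protein-coding windows on chromosome Y, 2% ± 0.282 (SD, n = 6) held a peak, 3 of them in all 6 libraries. Of these 548, 354 (64.6%) share an identical 300-base promoter sequence with another member, against 21 of the 4678 on the other chromosomes. Of the 375 genes with such a copy, 2 held a peak. On chromosome X, the 91 genes held a peak in 8.97% ± 0.827 (SD, n = 6), against 17.8% ± 3.30 of the 4587 autosomal genes, and protein-coding genes gave 42.4% ± 2.26 and 60.9% ± 2.53. The lower share on chromosome X was thus seen in both classes of gene.

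The share also fell with distance from a coding gene beyond the limit. The share was 22.9% ± 3.91 (SD, n = 6) for the 797 genes 5 to 20 kb from a protein-coding TSS, 19.7% ± 3.40 for the 2021 genes at 20 to 100 kb and 10.1% ± 2.19 for the 2408 genes farther away. The order was the same in each of the 6 libraries and was not tested. The 548 genes of chromosome Y, none with a peak, were included, and the order without them was not examined. The number of exons showed no such order, with 14.8% ± 2.61 for 277 genes of 1 exon, 16.5% ± 3.1 for 1835 genes of 2 exons and 15.4% ± 2.82 for 3114 genes of 3 or more. Only 24 of the 5226 start sites lay within 1 kb of an alternative start of a protein-coding transcript, 8 of them among the 489.

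**Figure D4:**
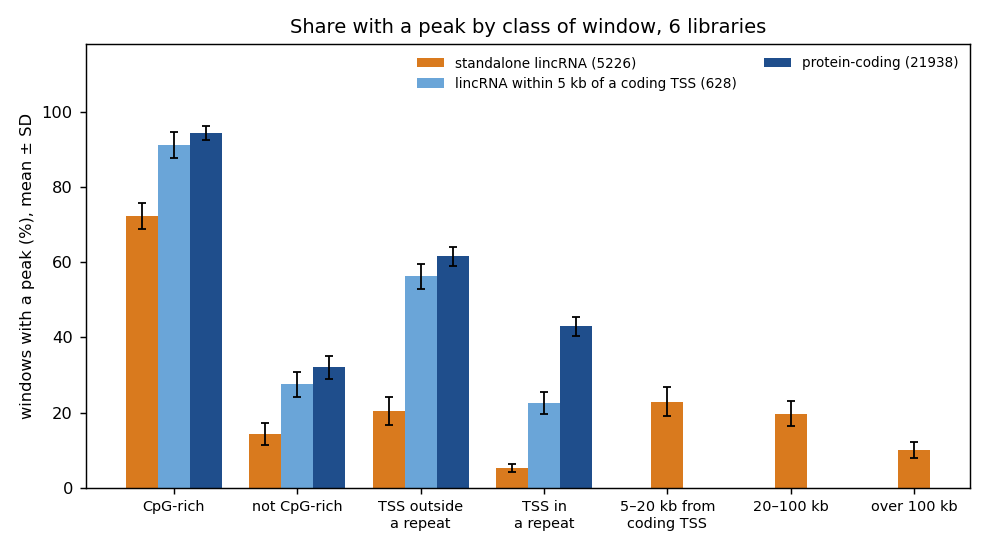
Share of windows with a peak (y axis, percent, mean and SD of 6 libraries) by CpG class, by whether the TSS lies in a repeat and, for standalone lincRNAs, by distance from the nearest protein-coding TSS. Standalone lincRNA windows range from 5.14% with a TSS in a repeat to 72.3% in CpG-rich windows.

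Short motifs were counted in the 300 bases from 250 before the TSS, on both strands, as a description of these letters and not of binding. The GC box GGGCGG was in 26.0% of the 489 lincRNA windows with a peak in all 6 libraries, 10.5% of those with a peak in 1 to 5, 5.21% of those with none and 22.7% of all gene promoters. The ETS core CCGGAA was in 17.4%, 7.54%, 4.78% and 10.3%. These letters overlap the CpG content just described, since both hold a CpG. The TEAD site GGAATG was in 21.7%, 17%, 16.7% and 15%, and the AP-1 site TGANTCA in 10.2%, 11.8%, 9.26% and 7.92%. TEAD factors are abundant in heart muscle, but no cause of these shares was tested. Of the sites of other heart factor families, GATA was rarer in the 489 windows than in those without a peak. MEF2 was slightly more frequent in the 489 than in those without a peak, but under its share of all gene promoters. Both sites are rich in A and T, and the median GC content was 50.4% in the 489 windows and 44.3% in those without a peak. The part of base composition in these shares was not tested. The GATA site AGATAA was in 13.1%, 15.3%, 17.9% and 13.8%, the TATA box TATAAA in 12.3%, 13.7%, 17.3% and 17.1%, the CCAAT box in 33.5%, 35.7%, 45.3% and 38.4%, and the MEF2 core TAAAAATA in 3.27%, 3.36%, 2.53% and 3.82%.

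The strength of a peak was given by its rank percentile in its own list, where 100 is the peak with the highest -log10 q-value, and by the pileup, the number of tags over the summit. Among the 489 windows with a peak in all 6 libraries, the lowest of the 6 ranks ran from 0.0969 to 99.4 with a median of 60.2, and the median pileup per library from 31.0 to 128. The 10 genes with the highest of these lowest ranks had values of 97 to 99.4 in their weakest library. They were 6720427I07Rik, Gm33195, Gm10010, 1700096K18Rik, A230028O05Rik, E130101E03Rik, Gm40477, Gm47096, Gm5444 and AC123853.1, mostly genes named only by a clone or model number.

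The 6720427I07Rik window had the highest lowest rank. Its peak ranked at 99.5 and 99.6 (Input), 99.5 and 99.4 (Myc) and 99.5 and 99.6 (PCM1), with pileups of 1163 and 377, 399 and 401, and 304 and 304 tags and summits from -182 to -95 bp relative to the TSS. It is one of 5 of these 10 windows that were CpG-rich. A CpG-poor window of the same rank class was that of Gm40477, 37641 bp from the TSS of the immediate early gene Fos, with ranks of 99.8 and 99.7 (Input), 97.6 and 98.3 (Myc) and 99.8 and 99.7 (PCM1). Both Myc libraries lay lowest there, as they did at E130101E03Rik, with 99.8 and 99.7 (Input), 98.0 and 97.7 (Myc) and 99.6 and 99.3 (PCM1). Gm47096 passed the limit by its distance of 47748 bp from a protein-coding gene start, but its TSS lies inside a protein-coding gene and 30 bp from an alternative coding transcript start, so its peak cannot be assigned to the lincRNA. The AC123853.1 summits lay 743 to 868 bp downstream of the TSS, outside the window that the peak overlapped.

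The longest median length over the libraries was 1515 bp at Gm6410, followed by 1502 bp at 6720427I07Rik, 1330 bp at 9530027J09Rik on chromosome X, 1284 bp at BC043934 and 1270 bp at Gm27017, against a median of 539 bp over the 489 windows. The peak at 9530027J09Rik ranked lower than its length, at 86.6 and 79.7 (Input), 73.7 and 73.0 (Myc) and 80.1 and 78.6 (PCM1). Of these 5 windows, 6720427I07Rik alone was also among the 10 with the highest lowest rank.

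Known lincRNAs were taken from 8 lists, 35 of whose genes were members. Of the 10 nuclear or widely expressed RNAs, 7 had a peak in all 6 libraries, 9 in at least 1 and 1 (Snhg20) in none, against 9.36% and 23.6% of all members. Snhg6 was the strongest, with ranks of 97.5 and 95.2 (Input), 97.2 and 97.5 (Myc) and 95.7 and 95.3 (PCM1), and summits from -50 to -37 bp relative to the TSS. 1700020I14Rik followed with 93.9 and 91.9, 98.3 and 97.7, and 93.1 and 90.0, and both Myc libraries lay above the other 4. Neat1, the RNA on which paraspeckles are built, had ranks of 88.5 and 60.7 (Input), 88.4 and 87.0 (Myc) and 69.6 and 60.6 (PCM1). The Input replicates lay about as far apart as any 2 libraries, with pileups of 392 and 69 tags. 2900097C17Rik, also called Norad, a binder of Pumilio proteins, ranked at 75.7 and 61.9, 84.9 and 84.3, and 63.2 and 54.7. Pvt1, a neighbour of the Myc proto-oncogene, ranked at 73.7 and 50.2, 72.3 and 75.2, and 36.5 and 40.3, with PCM1 below the other 4 libraries. Snhg12 and Epb41l4aos also had 6 peaks, and Lncpint, a p53 target, had 5 of low rank (0.0624 to 42.6).

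At Malat1, the abundant RNA of nuclear speckles, the call depended on the width of the window. A peak with its summit between -32 and -22 bp relative to the TSS was called in Input replicate 1 (rank 46.8), both Myc libraries (71.0 and 68.2) and PCM1 replicate 2 (21.3). A stronger peak lay farther upstream in all 6 libraries, with its summit about 1 kb from the TSS (-1051 and -930 bp in Input, -1050 and -1049 in Myc and -964 in both PCM1 libraries) and ranks of 95.0 and 90.8 (Input), 95.2 and 95.8 (Myc) and 93.6 and 89.7 (PCM1). This second peak reached the 500 bp window in 3 libraries, Myc replicate 1 and both PCM1 replicates, so Malat1 scored 5 of 6 libraries by a mix of both peaks. With windows of 1000 bp to either side, it scored all 6. Snhg20 rose in the same way from 0 to 6 libraries with the wider window, and also when any of its transcript starts was allowed.

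**Figure D5:**
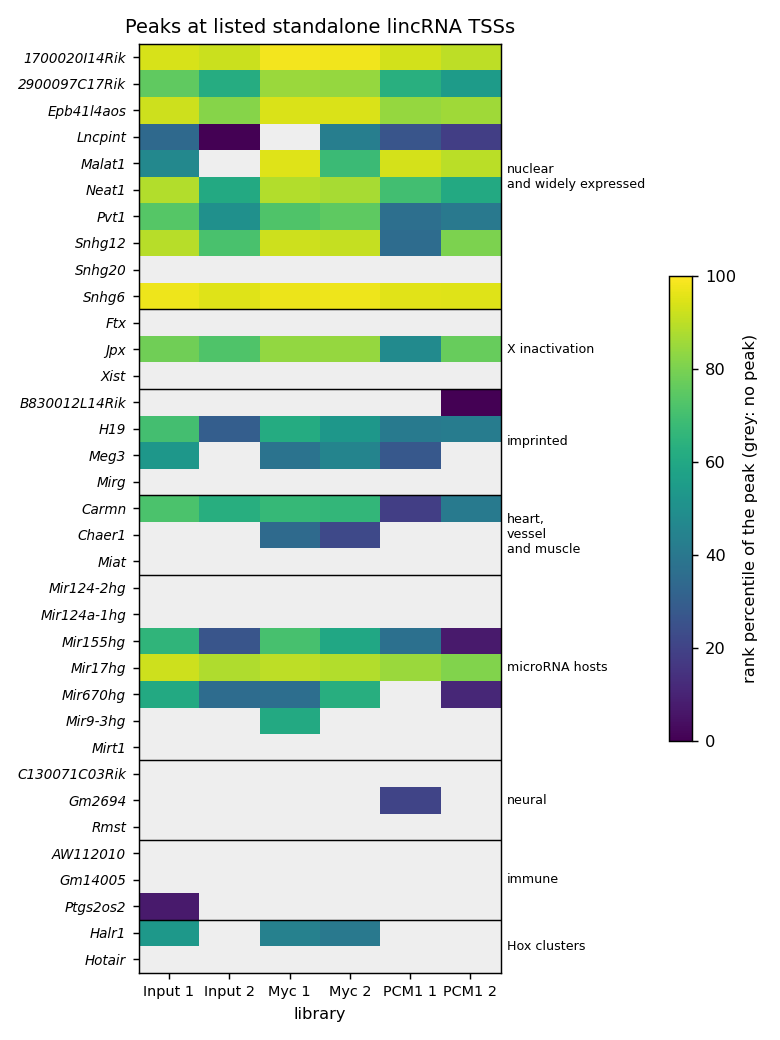
Rank percentile of the strongest peak overlapping the window (colour, 0 to 100, grey where no peak was called) for the 35 listed standalone lincRNA genes (rows, grouped by list) in the 6 libraries (columns). Snhg6, 1700020I14Rik, Epb41l4aos and Mir17hg stand above rank 80 throughout, and 1 of 3 genes has a peak in each of the neural and immune lists.

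The X inactivation genes split. Jpx, which activates Xist, had a peak in all 6 libraries with ranks of 78.5 and 72.6 (Input), 83.9 and 84.3 (Myc) and 47.9 and 76.9 (PCM1). Xist itself, the RNA that coats the inactive X chromosome, had no peak at its TSS in any library, none at any of its annotated transcript starts, and with windows of 1000 bp a peak in 1 library. The sex of the hearts is not given in the sources used here. Ftx had none at its gene-level TSS and a peak in all 6 libraries at another of its transcript starts.

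Of the 4 imprinted members, H19 alone had a peak in all 6 libraries, and 3 had a peak in at least 1. H19, expressed from the maternal allele beside Igf2, ranked at 70.1 and 29.7 (Input), 61.5 and 52.8 (Myc) and 40.7 and 41.9 (PCM1). Meg3, expressed from the maternal allele of the Dlk1 region, had a peak in 4 libraries (52.9 in Input replicate 1, 38.0 and 45.2 in Myc and 27.5 in PCM1 replicate 1) and none in Input replicate 2 and PCM1 replicate 2. Farther along the same locus, B830012L14Rik had 1 peak of 5 tags, and Mirg, the host of many microRNAs, had none. Peak lists do not separate the alleles.

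Of the 14 heart, vessel and muscle lincRNAs listed, 8 are in the annotation and 3 were members. Carmn, which hosts the smooth muscle microRNAs 143 and 145, had a peak in all 6 libraries with ranks of 71.7 and 62.5 (Input), 67.1 and 66.1 (Myc) and 18.4 and 41.0 (PCM1). The PCM1 libraries were the lowest, and 9 to 11 of the 12 smooth muscle and pericyte marker TSSs held a peak in each library. Chaer1, a heart-enriched RNA that binds the Polycomb complex PRC2, had a peak in both Myc libraries alone, with ranks of 34.4 and 22.2, pileups of 23 and 18 tags and summits 243 and 259 bp downstream of its TSS, and Hopx, a regulator of cardiac growth, is its nearest protein-coding gene at 25131 bp. Miat had no peak.

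MicroRNA hosts ranged from the top of the scale to none. Mir17hg, the host of the proliferation-linked cluster of microRNA 17, ranked at 92.3 and 88.0 (Input), 90.1 and 88.3 (Myc) and 84.8 and 81.0 (PCM1), with every summit outside the 500 bp limit, from -661 to -529 bp relative to the TSS. Mir155hg, best known from immune cells, ranked from 70.8 down to 7.27 but was present in all 6. Mir670hg had 5 peaks, Mir9-3hg 1, and the hosts of the neuronal microRNA 124, Mir124a-1hg and Mir124-2hg, had none at the gene-level TSS, although Mir124a-1hg is CpG-rich. Mirt1, which the list counts with these genes although its name stands for a myocardial infarction associated transcript and not for a microRNA host, had none either.

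Of the lincRNAs listed for other tissues, 1 of 3 neural, 1 of 3 immune and 1 of 2 Hox members had a peak in at least 1 library, against 23.6% of all 5226 members, and none had one in all 6, against 9.36%. With so few members, nothing was read from these counts. Of the 3 neural members, Rmst and C130071C03Rik had none and Gm2694 had 1 peak of 9 tags in PCM1 replicate 1. Of the 3 immune members, Gm14005 and AW112010 had none and Ptgs2os2 had 1 peak in Input replicate 1. In the Hox clusters, Hotair had none, and Halr1, at the flank of the Hoxa genes, had peaks in Input replicate 1 and both Myc libraries with ranks of 53.2, 43.9 and 40.6. Gm2694 and Gm14005 each had a peak in all 6 libraries at another of their transcript starts, so the absence refers to the gene-level TSS.

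LincRNA genes whose nearest coding gene is a regulator of the heart were looked up after the peaks had been seen, and are given as values only. For 14 of 24 cardiac transcription factors, at least 1 standalone lincRNA had that gene as its nearest coding gene, 27 lincRNAs in all. Of these, 5 (18.5%) had a peak in all 6 libraries, against 9.36% of all 5226 members, 10 (37.0%) in at least 1, against 23.6%, and 17 in none. Gm12295, 95809 bp from Myocd, the coactivator of serum response factor in heart and smooth muscle, ranked at 93.4 and 88.0 (Input), 90.1 and 90.1 (Myc) and 86.1 and 87.5 (PCM1). Gm20468, 16412 bp from Nkx2-5, ranked at 87.2 and 77.9, 81.4 and 89.1, and 82.3 and 81.5, with its TSS in a repeat and its summits 123 to 190 bp downstream. Its window had peaks in every library, while the gene-level TSS window of Nkx2-5 itself had none in any. For Nkx2-5, other transcript starts and wider windows are not given here, so its promoter cannot be called closed from this. Gm49390 and Gm5463, with Gata4 as nearest coding gene, and Gm34030, with Hand2, made up the 5. The Gm34030 summits lay 531 to 633 bp downstream of its TSS, outside the window that the peak overlapped. Mef2c and Meis1 had 3 and 4 such lincRNAs without a peak in any library. They lay 217347 to 438577 bp from the Mef2c TSS and 46291 to 525730 bp from that of Meis1. 5033428I22Rik, 11135 bp from Hand2, had none at its gene-level TSS but a peak in all 6 libraries at another of its transcript starts. A lincRNA with a heart regulator as its nearest coding gene could thus have peaks of high rank or no peak at its gene-level TSS.

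Peaks that set a group apart were few and weak. A peak in both libraries of a group and in no other was found at 11 windows for Input (0.210%), 9 for Myc (0.172%) and 2 for PCM1 (0.0383%), against 0.126%, 0.200% and 0.0325% of all gene windows. These shares are small in the members and in all genes alike. For Input, the leading gene was Gm6213, with ranks of 38.1 and 48.3 and pileups of 26 and 15 tags, followed by Gm35363, Gm45889, 2610028E06Rik and Gm47039. For Myc, it was 1500035N22Rik, whose TSS lies inside a protein-coding gene and whose nearest coding TSS is that of Prkag2, with ranks of 30.0 and 41.5, pileups of 38 and 45 tags and summits at -1 and -6 bp relative to the TSS. Gm14424 near Hoxd1, Chaer1, 1810006J02Rik and Gm11412 came next. For PCM1, the only genes were AC122252.3 (18.7 and 21, with 18 tags in both) and Gm49282 (18.1 and 36.3, with 13 and 16 tags). None of these 12 named windows reached rank 50 in the weaker library of its group. With windows of 1000 bp, Gm45889 and AC122252.3 had peaks in all 6 libraries and 2610028E06Rik in 4.

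These counts depended on how many peaks each list holds and on single libraries. With 75336 peaks per list, Input had 7, Myc 17 and PCM1 11 such windows, of which 2, 1 and 2 windows were the same as with all peaks. Protein-coding windows moved too, from 27 to 34 for Input, 55 to 47 for Myc and 5 to 26 for PCM1. For the counts with a library left out, values over all genes are not given here, so they describe the members only. Leaving out a library of another group, so that 1 library fewer had to lack the peak, gave up to 21 windows for Input (without Myc replicate 1; 20 without Myc replicate 2), up to 63 for Myc (without Input replicate 1) and up to 7 for PCM1 (without Input replicate 1; 4 without Myc replicate 1). Leaving out a library of the same group, so that the other sufficed, gave 23 and 104 for Input, 38 and 62 for Myc and 21 and 27 for PCM1 (without replicates 1 and 2). No test between groups was run, since 2 libraries against 4 cannot give a one-sided exact permutation p under 0.0667.

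A peak in the other 4 libraries and in neither library of a group was found at 34 windows for PCM1 (0.651%, against 0.502% of all genes), 2 for Myc (0.0383%, against 0.0361%) and 0 for Input (0%, against 0.0162%). The PCM1 gap was led by Gm31408, with ranks of 48.7 and 59.8 in Input and 77.7 and 71.0 in Myc, then Gm31938 (61.6 and 43.5, 51.8 and 63.8) and Gm47391 (66.7 and 41.9, 58.8 and 61.7). The Myc gap held Gm32479 (61.6 and 27.8 in Input, 66.0 and 36.1 in PCM1) and Gm48605. With equal lists the PCM1 gap fell to 15 windows, 14 of them shared with the 34, and protein-coding genes went from 159 to 110. The PCM1 libraries also had peaks at fewer fibroblast marker TSSs, 6 and 6 of 12, against 11 and 8 in Input and 10 and 10 in Myc, with mean ranks of 27.2 and 26.1 against 53.9, 37.1, 47.1 and 51.2. Both PCM1 libraries lay below the other 4 in the fibroblast list alone. The endothelial list gave 9 and 9 of 12 in PCM1, 10 and 9 in Input and 9 and 10 in Myc. In the same order, the epicardial list gave 7 and 7, 8 and 5, and 8 and 9. The smooth muscle and pericyte list gave 11 and 9, 11 and 10, and 11 and 11. Cardiomyocyte marker TSSs held a peak at 9 or 10 of 12 in every library, Tnni3 and Nkx2-5 being the ones without a peak throughout, and immune marker TSSs at 0 to 2 of 12. The part of cell mixture in the PCM1 gap was not tested, and in nuclei pooled from a whole heart, fewer open cells and less open chromatin per cell cannot be told apart.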

How the data were processed

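Reads were quality-trimmed by the authors (fastq-mcf) and aligned to mm10 (Bowtie2 2.3.3.1). Duplicates were marked (Picard 2.2.1), blacklisted regions taken out and Tn5 offsets corrected. MACS2 2.1.0.20160309 then gave 1 peak list per library at a q-value of 0.05. The deposited lists give each peak a score, the authors' fold ratio of pileup to local background at the summit, and the authors' −log10 p-value and q-value. Peaks were ranked within a list by −log10 q. The score was not used further. Pileups were solved from the fold and the p-value, and came out whole within 0.02. No read counts or coverage were used, so the depth of a library is known only through its list length and background.

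A window counted if at least 1 bp of a peak overlapped it. GENCODE M21, the masked GRCm38 sequence, Python 3.11.15, numpy 2.4.6, pandas 2.3.3 and scipy 1.17.1 were used. Differences were tested by exact sign flips over the 6 libraries, adjusted by Benjamini-Hochberg over 6 tests. Groups had 2 libraries each and were not tested against each other. The genes, lists and tests were chosen with earlier results of these data known. Genes named were all list members, the 10 members with the highest lowest rank, the 5 leading members of each single group, the 3 leading members missing from 1 group, the 5 with the longest peak and the 2 at the distance limit. Alternatives were a q-value of 0.01, equal lists, windows of 200 and 1000 bp, a distance of 10 kb, the summit inside the window and each library left out. Any transcript start, distance from coding transcript starts and the removal of chromosome Y were added after the data had been seen. The computations were tested on simulated data.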

Additional observations from a re-analysis of the deposited data

How the results depend on the processing

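The 6 tested differences kept their direction under every alternative. All had an adjusted p of 0.0312 with all 6 libraries, also under the 3 alternatives added after seeing the data. With 1 library left out, the smallest exact p is 0.0625, so no difference could pass, whichever library was removed. The values then ran from -44.0 to -43.7 points for standalone against protein-coding windows, from -35.2 to -35.0 against near-coding lincRNAs, from -22.5 to -21.3 in CpG-rich windows, from -17.7 to -17.5 in other windows, from 10 to 10.8 against the flanks, and from -15.8 to -14.4 for start sites in a repeat. The mean share moved by more than the spread between libraries with windows of 200 bp (12.6%) and 1000 bp (19.9%). With any transcript start it was 17%, and without chromosome Y 17.6%. The count in all 6 libraries stayed between 382 and 623. The single-group counts moved most. With equal lists, they were 7 for Input, 17 for Myc and 11 for PCM1, beside 34, 47 and 26 among protein-coding windows. With windows of 200 bp Input had 7, and with windows of 1000 bp Myc had 17. With 1 library left out, of the same group (1 library then suffices) or of another (1 library fewer has to lack the peak), the counts ran from 12 to 104 for Input, 11 to 63 for Myc and 2 to 27 for PCM1.

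Depth limits the lists: the absence of a peak was read only as not detectable at the depth of that library. No paired analysis was possible because no test compared the groups, and the sources used here do not say whether libraries with the same number share a preparation.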
